A study of Mus musculus with 10 samples.

Results

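The genes described here encode the enzymes that attach ubiquitin to proteins and remove it again. They were collected by symbol from the deposited tables of intronic polyadenylation (IPA) sites, that is, from genes with a transcript end inside an intron whose use differed between 2 groups of cells. A gene was taken when its symbol starts with Usp, Ube, Uba, Uch, Otu, Fbx, Rnf, Trim, Cul, Klhl, Herc or Huwe, or is Cblc, Spop, Appbp2 or Arih1. The rule gave 50 of 1452 listed genes and, with overlapping positions merged, 69 of 2010 listed sites. By role there were 4 genes with a Uba symbol, 9 E2 enzymes, 10 RING and RBR ligases, 2 TRIM proteins, 1 HECT ligase, 1 U-box ligase, 10 cullins and substrate adaptors and 13 deubiquitinases.

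The 3' ends of polyadenylated RNA were sequenced from mouse mammary tumour cells of the 4T1 family, in 5 groups of 2 libraries. The 4T1-U1-ASO cells had received a morpholino, an antisense oligonucleotide, complementary to U1 snRNA, with 6 µl/mL of a delivery reagent. Their comparison group is 4T1, for which the series design names mock transfection while the labels give no treatment. 4T1 and 4T07, labelled invasive and called metastatic in the design, were each compared with 67NR and 168FARN, labelled non-invasive and called non-metastatic. Each line is 1 cell line grown in culture, so a difference between lines is a difference between those lines. Whether a pair of libraries stands for separate cultures is not labelled, so a p-value reflects the spread of libraries alone, and that spread may be technical.

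Ubiquitin is activated by an E1 enzyme, passed to an E2 conjugating enzyme and transferred to a substrate by an E3 ligase. RING, U-box and cullin ligases bring E2 and substrate together, whereas HECT and RBR ligases carry the ubiquitin themselves for a moment. Deubiquitinases cut the chain. A transcript that ends in an intron lacks the exons downstream of that end. U1, the RNA that pairs with 5' splice sites, is known to hold back such premature ends as well as to start splicing.

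Usage of a site is the percentage of site reads among site and last-exon reads of a library, and is given as mean ± SD over 2 libraries. The peak lists held 1427728 to 3347776 reads per library. The lowest value belongs to 67NR replicate 2, whose list covers 9 chromosomes on both strands against 19 to 21 in the others. Both 4T1-U1-ASO lists cover 21, with chromosome X, and both 4T1 lists cover 19, without it. Scaling by peak-list totals, used below, therefore rests on unlike sets of chromosomes in these 2 groups. Within the 4T1 group, last-exon reads were lower in replicate 1 than in replicate 2 for 33 of 37 ubiquitin-system genes, with a median ratio of 0.785, and for 922 of 1127 genes over the whole U1-ASO table, with a median ratio of 0.802. Library depth cancels in usage. Of 12 cell type markers looked up, 4 had a listed site, and only their last-exon reads are given. The last exon of Spint2, an epithelial gene, was read 963 and 965 times in 4T1 and 730 and 849 times in 4T07, against 5 and 0 in 67NR and 0 and 0 in 168FARN. Twist2, a mesenchymal gene, had 2 and 0 in 4T1 and 0 and 0 in 4T07, against 74 and 54 in 67NR and 309 and 293 in 168FARN. Both markers move with the division between the lines, and their part in the line differences given here was not tested. In the U1-ASO comparison the last exon of Vim, a mesenchymal gene, gave 3017 and 2772 reads in 4T1-U1-ASO, against 12512 and 13028 in 4T1, and that of Cdh1, an epithelial gene, 1305 and 1370 in 4T1-U1-ASO, against 800 and 952 in 4T1. These are unscaled reads, and a change in last-exon reads alone depends on the scaling of these 2 groups. Over all listed sites, the median last-exon change lay 0.61 higher on the log2 scale with peak-list totals than with the authors' factors. Neither marker's difference was tested, nor its part in the U1-ASO differences.

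The U1-ASO comparison asks what happens to IPA when U1 is blocked. It listed 54 sites in 37 ubiquitin-system genes, 50 with higher and 4 with lower usage in 4T1-U1-ASO than in 4T1. Higher usage made up 87.6% and lower usage 12.4% of all 1561 listed sites, so the split lies close to that of the whole table. Both U1-ASO libraries lay above both 4T1 libraries at the same 50 sites, against 87.5% of all listed sites, and below them at the other 4, against 12.4%. A site had to pass an adjusted p of 0.1 to be listed, so these counts describe the listed sites and test nothing. The median usage of the 50 sites was 4.85% in 4T1-U1-ASO and 0.656% in 4T1, beside 5.17% and 0.739% over all 1368 sites with higher usage. In the authors' deposited table their median log2 change was 2.01, beside 1.93 over all such sites. No read was seen in either 4T1 library at 10 of the 50 sites, or 20% of them, against 15% of all such sites.

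**Figure D1:**
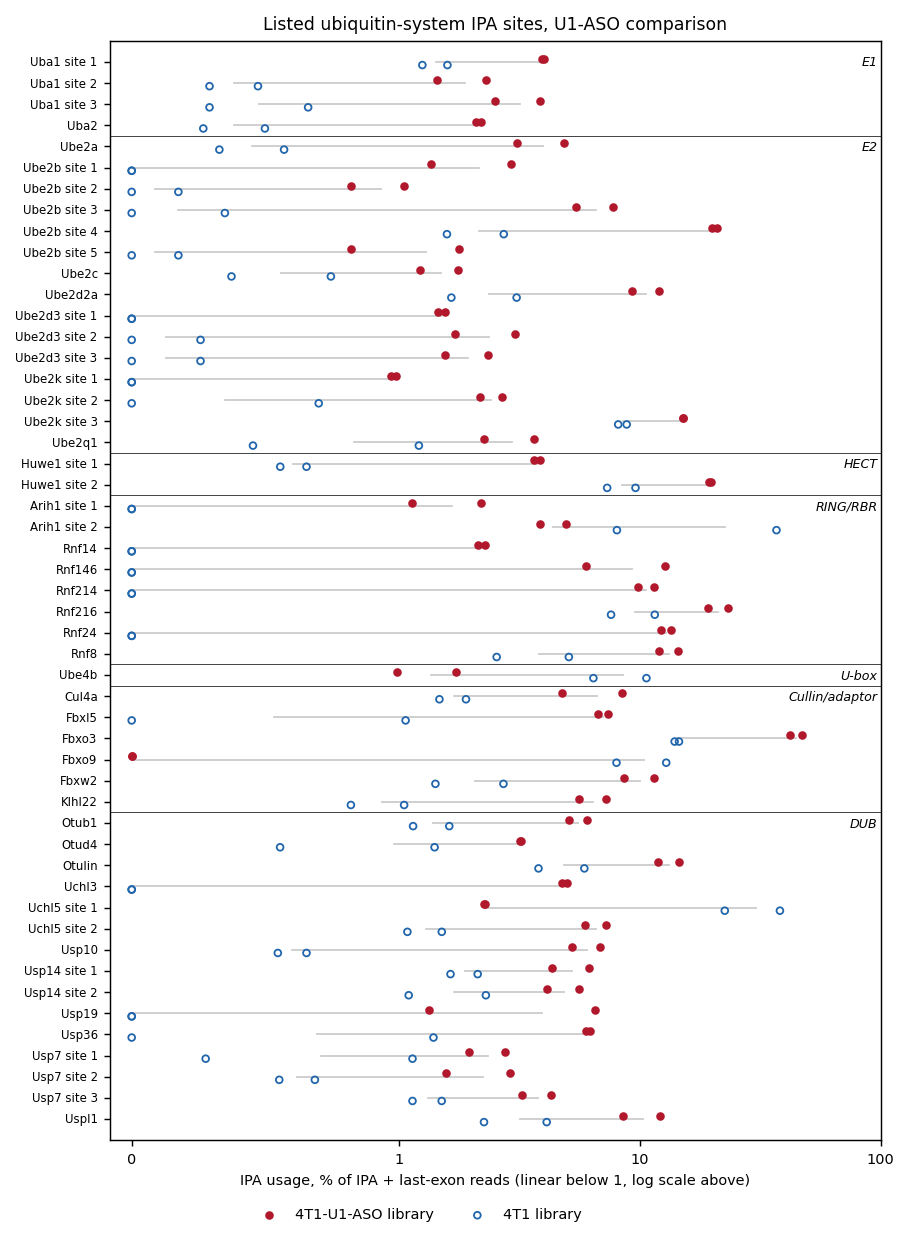
Usage of 51 listed ubiquitin-system sites in each library of the U1-ASO comparison, on an axis that is linear below 1% and logarithmic above; filled points are 4T1-U1-ASO libraries, open points 4T1 libraries, and grey lines join the group means. Filled points lie to the right at 47 of the 51 sites, and to the left at single sites of Uchl5, Arih1, Ube4b and Fbxo9.

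The activating enzymes contributed 5 sites in 3 genes, all higher in 4T1-U1-ASO. Uba1, the main E1 for ubiquitin, had 3 sites within 10.8 kb on chromosome X. The most downstream of them, chrX:20259029-20259316 on the plus strand (all positions are mm9), held 22 and 12 reads in 4T1-U1-ASO, against 7 and 3 in 4T1, beside last-exon reads of 550 and 466 against 1054 and 1028. Summed over the 3 sites, usage was 8.53% ± 0.369 in 4T1-U1-ASO and 2.25% ± 0.610 in 4T1. Every U1-ASO library lay above every 4T1 library. The last-exon reads of Uba1 fell by 1.64 on the log2 scale (adjusted p = 0.00053, edgeR's quasi-likelihood test). When libraries were scaled by their peak-list totals, they were 1.02 lower (adjusted p = 0.0084, same test). With the authors' scaling, site reads alone changed by -0.11, 0.65 and 1.16 from the first site to the last. None of these 3 changes passed (adjusted p = 0.827, 0.358 and 0.061, same test). Mouse Uba1 has a close copy on the Y chromosome, and the sources used here do not state how reads of the pair were assigned. Uba2, a subunit of the E1 for the modifier SUMO, had usage of 2.13% ± 0.0755 in 4T1-U1-ASO and 0.383% ± 0.163 in 4T1.

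E2 conjugating enzymes held 17 sites in 8 genes, more than any other role, and all 17 were higher in 4T1-U1-ASO. Ube2b, a RAD6 enzyme that ubiquitinates histone H2B and PCNA, held 5 of them within 7.48 kb. Its strongest site, chr11:51806624-51807403 on the minus strand, held 176 and 180 reads in 4T1-U1-ASO, against 7 and 16 in 4T1, with last-exon reads of 663 and 726 against 436 and 572. The groups did not overlap: usage was 20.4% ± 0.785 in 4T1-U1-ASO and 2.15% ± 0.807 in 4T1. The next, chr11:51807977-51808431, held 38 and 61 reads in 4T1-U1-ASO, against 0 and 2 in 4T1, and had the largest log2 change of any ubiquitin-system site in the authors' deposited table, 3.78 with a standard error of 0.65. Further upstream, chr11:51810444-51810540 held 20 and 10 reads in 4T1-U1-ASO and none beside 1008 last-exon reads in 4T1. A count of 0 there allows a usage of up to 0.298% (3 reads over both libraries). The usage of the summed reads in 4T1-U1-ASO was 7.10 times that limit, a value that leaves out the error of the U1-ASO count. Summed over the 5 sites, 27.1% ± 0.727 of the reads ended in an intron in 4T1-U1-ASO and 2.48% ± 1.27 in 4T1. The last-exon reads of Ube2b in the same 4T1 libraries are 1.998 and 2.0 times as many in the table against 67NR, 871 and 1144, as in this table. Usage of Ube2b is therefore not comparable between the 2 tables, and the percentages here depend on which of the counts is taken for the last exon.

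Ube2d3 and Ube2k, a promiscuous E2 and one that builds lysine-48 chains, had 3 sites each. The first site of Ube2d3 in transcript order, chr3:135118797-135119064 on the plus strand, held 8 and 10 reads in 4T1-U1-ASO and none in 4T1, where 1377 last-exon reads allow up to 0.218%. Its other sites, 2.33 and 4.51 kb downstream, held 17 and 11 and 13 and 10 reads in 4T1-U1-ASO, against 0 and 2 reads at each in 4T1. All 3 sites thus stayed low, and together they reached 5.59% ± 1.33 in 4T1-U1-ASO and 0.257% ± 0.363 in 4T1. Ube2k differed from site to site. Its first site, chr5:65930677-65930961 on the plus strand, was read 8 and 8 times in 4T1-U1-ASO and not at all in 4T1. Its last, 54.8 kb downstream at chr5:65985655-65985787, was already used in 4T1, with 71 and 88 reads and a usage of 8.48% ± 0.486, against 146 and 143 reads and 15.2% ± 0.0201 in 4T1-U1-ASO. That site had the smallest positive log2 change of the ubiquitin-system sites in the authors' deposited table, 0.91.

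Other E2 enzymes had 1 site each, among them Ube2d2a with 10.6% ± 1.91 in 4T1-U1-ASO and 2.36% ± 1.01 in 4T1, Ube2a, the other RAD6 enzyme, with 3.97% ± 1.26 in 4T1-U1-ASO and 0.449% ± 0.171 in 4T1, and Ube2q1 with 2.94% ± 0.969 in 4T1-U1-ASO and 0.831% ± 0.533 in 4T1. Ube2c, which works with the anaphase-promoting complex in mitosis, had 1.49% ± 0.373 in 4T1-U1-ASO and 0.559% ± 0.263 in 4T1.

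**Figure D2:**
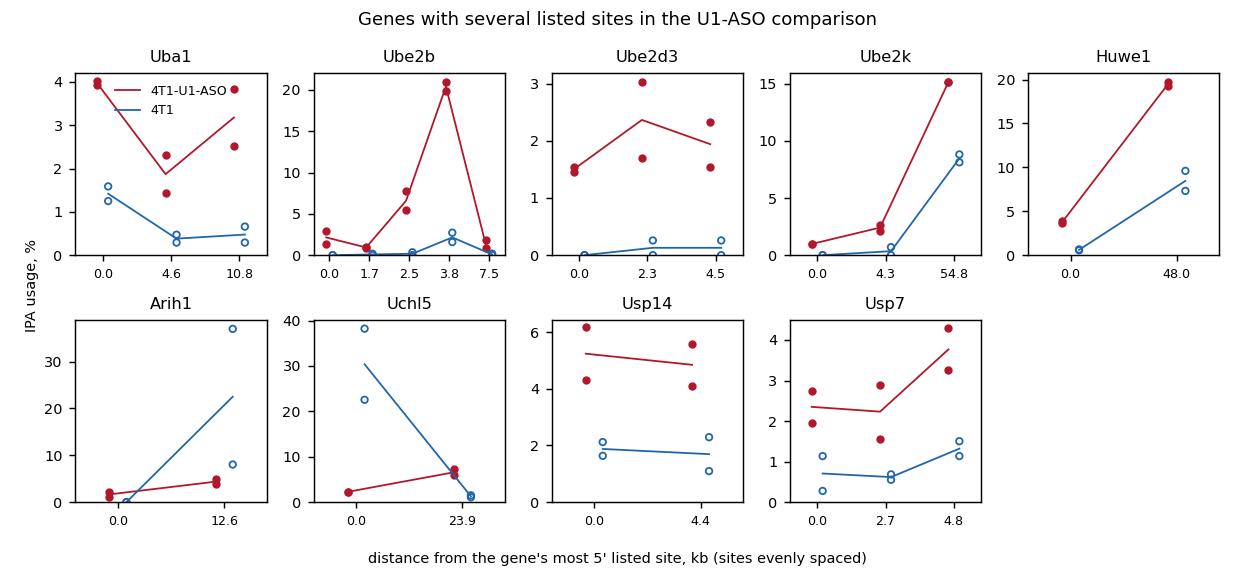
Usage along the transcript in 9 ubiquitin-system genes with several listed sites in the U1-ASO comparison, 5' to 3'; points are libraries (filled 4T1-U1-ASO, open 4T1), lines join group means, and the labels on the horizontal axis give the distance in kb from the first site. Ube2b reaches 20.4% at the site 3.82 kb from its first in 4T1-U1-ASO, and in Arih1 and Uchl5 the 2 sites move in opposite directions.

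Among the ligases, Huwe1, a large HECT ligase, had 2 sites 48.0 kb apart on chromosome X. The downstream one, chrX:148325320-148325723 on the plus strand, held 65 and 72 reads in 4T1-U1-ASO, against 19 and 24 in 4T1. Usage was 19.5% ± 0.321 in 4T1-U1-ASO and 8.46% ± 1.61 in 4T1, and the upstream site had 3.74% ± 0.130 in 4T1-U1-ASO and 0.605% ± 0.0693 in 4T1. Here the downstream site's reads rose (log2 change 1.09, adjusted p = 0.0056, edgeR; 0.0707 with DESeq2, 0.0699 without 4T1-U1-ASO replicate 1 and 0.11 without 4T1-U1-ASO replicate 2), while the last exon gave 264 and 301 reads in 4T1-U1-ASO and 179 and 304 in 4T1.

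RING and RBR ligases held 8 sites in 7 genes, 7 of them higher in 4T1-U1-ASO. No read was found in 4T1 at 5 of those 7. Rnf24, a membrane RING protein, had 7 and 7 reads beside 45 and 50 last-exon reads in 4T1-U1-ASO, and no read beside 90 last-exon reads in 4T1, which allows up to 3.33%. Usage was 12.9% ± 0.835 in 4T1-U1-ASO, and that of its summed reads was 3.85 times the limit. Rnf214 reached 10.7% ± 1.16 and Rnf146, which ubiquitinates proteins carrying poly(ADP-ribose), 9.31% ± 4.75 in 4T1-U1-ASO. Rnf14, an RBR ligase, reached 2.2% ± 0.0961, and each of the 3 was without a read in 4T1. For Rnf214, Rnf146 and Rnf14, the usage of the summed U1-ASO reads was only 2.77, 2.95 and 1.98 times the limit for 4T1. The 4T1 libraries held only 78, 98 and 269 last-exon reads of these genes. Rnf216, an RBR ligase, was used in both groups, with 69 and 60 reads in 4T1-U1-ASO, against 18 and 18 in 4T1, and usage of 21.2% ± 2.87 in 4T1-U1-ASO and 9.57% ± 2.79 in 4T1. Rnf8, which ubiquitinates histones at DNA breaks, had 13.2% ± 1.74 in 4T1-U1-ASO and 3.81% ± 1.79 in 4T1.

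Cullins and their substrate adaptors held 6 sites in 6 genes, 5 of them higher in 4T1-U1-ASO. Fbxo3, an F-box protein that brings substrates to the SCF ligase, had 61 and 62 reads beside 68 and 85 last-exon reads in 4T1-U1-ASO, against 8 and 12 beside 47 and 74 in 4T1, at chr2:103895000-103895313 on the plus strand. Nearly as many reads ended in the intron as in the last exon in 4T1-U1-ASO, with usage of 44.7% ± 3.61, against 14.2% ± 0.419 in 4T1. Fbxl5, which senses iron and targets IRP2, had 16 and 13 reads in 4T1-U1-ASO, against 0 and 1 in 4T1. It also had more last-exon reads in 4T1-U1-ASO, 201 and 181 against 73 and 93 in 4T1, a log2 change of 0.62 (adjusted p = 0.0361, edgeR; 0.133 with DESeq2, 0.374 without 4T1-U1-ASO replicate 1 and 0.218 without 4T1-U1-ASO replicate 2). Fbxw2 reached 10.0% ± 2.0 in 4T1-U1-ASO and 2.06% ± 0.918 in 4T1. Cul4a, a cullin scaffold, had 6.61% ± 2.61 in 4T1-U1-ASO and 1.68% ± 0.301 in 4T1, and Klhl22, a CUL3 adaptor, 6.41% ± 1.18 in 4T1-U1-ASO and 0.934% ± 0.162 in 4T1.

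Deubiquitinases held 15 sites in 11 genes, 14 of them higher in 4T1-U1-ASO. Otulin, which removes linear chains, had 20 and 16 reads in 4T1-U1-ASO, against 17 and 11 in 4T1, at chr15:27549290-27549384 on the minus strand, so the site reads hardly differed. Its last-exon reads were 117 and 119 in 4T1-U1-ASO, against 272 and 279 in 4T1, and fell by 1.82 on the log2 scale (adjusted p = 0.00034, edgeR; 1.21 lower and adjusted p = 0.0054 with peak-list scaling). Usage was 13.2% ± 1.94 in 4T1-U1-ASO and 4.84% ± 1.48 in 4T1. Uchl3 and Usp19, an enzyme with a form anchored in the endoplasmic reticulum, had no read in 4T1. In 4T1-U1-ASO they had 7 and 9 and 11 and 2 reads, and the usage of their summed reads was 5.11 and 5.16 times the limit for 4T1. The 2 U1-ASO libraries of Usp19 were far apart, at 6.51% and 1.32%, beside a limit of 0.787% in 4T1.

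Usp10, which stabilises p53, had 15 and 11 reads at chr8:122476440-122476562 on the plus strand in 4T1-U1-ASO, against 2 and 2 in 4T1, with usage of 6.02% ± 1.13 in 4T1-U1-ASO and 0.600% ± 0.0758 in 4T1. Usp14, a deubiquitinase of the proteasome, had 2 sites 4.41 kb apart, with usage of 9.62% ± 0.251 in 4T1-U1-ASO and 3.51% ± 1.15 in 4T1 for the pair. Usp7, which acts on MDM2 and p53, had 3 sites within 4.84 kb that added up to 7.92% ± 1.01 in 4T1-U1-ASO and 2.60% ± 0.423 in 4T1. None of the sites of Usp14 and Usp7 exceeded 5.24% in the mean. Usp36, a nucleolar enzyme, had 6.08% ± 0.143 in 4T1-U1-ASO and 0.694% ± 0.982 in 4T1. Otub1, which cuts lysine-48 chains, had 5.54% ± 0.690 in 4T1-U1-ASO and 1.38% ± 0.334 in 4T1, and Otud4 had 3.20% ± 0.0348 in 4T1-U1-ASO and 0.979% ± 0.600 in 4T1. Uspl1 had 10.3% ± 2.55 in 4T1-U1-ASO and 3.18% ± 1.31 in 4T1, and is caught by its symbol only, since it removes SUMO and not ubiquitin.

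Single sites in 4 genes had lower usage in 4T1-U1-ASO. The largest fall was in Uchl5, another deubiquitinase of the proteasome, at chr1:145625765-145626301 on the plus strand. It held 8 and 7 reads beside 345 and 303 last-exon reads in 4T1-U1-ASO, against 295 reads over both libraries beside 262 and 457 in 4T1. Usage was 2.26% ± 0.00582 in 4T1-U1-ASO and 30.4% ± 11.1 in 4T1 (38.2% and 22.5% in its libraries), and the site reads fell by 4.89 on the log2 scale (adjusted p = 4.3e-17, edgeR). A second Uchl5 site 23.9 kb downstream went the other way, with 27 and 19 reads in 4T1-U1-ASO, against 4 and 5 in 4T1. Summed, the intronic ends of Uchl5 came to 8.56% ± 0.925 in 4T1-U1-ASO and 31.0% ± 11.0 in 4T1, so the upstream site set the total.

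Ube4b, a U-box ligase that extends chains begun by other ligases, had 3 and 5 reads at chr4:148706587-148706762 on the minus strand in 4T1-U1-ASO, against 31 and 22 in 4T1. Usage was 1.36% ± 0.517 in 4T1-U1-ASO and 8.53% ± 3.0 in 4T1. Fbxo9 had no read at chr9:77943319-77943711 in 4T1-U1-ASO, beside 142 last-exon reads that allow up to 2.11%, against 13 and 8 reads and 10.4% ± 3.44 in 4T1. The usage of the summed 4T1 reads of Fbxo9 was 4.95 times that limit. Arih1, an RBR ligase that works together with cullin ligases, fell at chr9:59319416-59319698 on the minus strand to 28 and 37 reads beside 701 and 716 last-exon reads in 4T1-U1-ASO, against 95 and 29 beside 494 over both libraries in 4T1. The 4T1 libraries were far apart there, at 37.0% and 8.03%, although both exceed the 3.84% and 4.91% of the U1-ASO libraries. The log2 change in usage was -2.57 (adjusted p = 0.00178, edgeR) with all libraries and -0.93 (adjusted p = 0.021) without 4T1 replicate 1. An upstream Arih1 site, 12.6 kb away, had 8 and 16 reads in 4T1-U1-ASO and none in 4T1.

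Usage combines the site with the last exon, and each was also tested alone with edgeR's quasi-likelihood test at an adjusted p under 0.05. Site reads were higher in 4T1-U1-ASO at 32 of 54 sites and lower at 4, beside 57.1% and 12.1% of all listed sites, and with DESeq2 only 7 and 4 passed. Last-exon reads were lower in 4T1-U1-ASO at 34 sites and higher at 3, beside 56.4% and 9.74%. By gene, 23 of 37 had fewer and 2 more last-exon reads. Of the 50 sites with higher usage, 17 passed in the site reads only, 18 in the last exon only and 13 in both, all with the authors' factors. At the other 2, a component passed in the direction against the usage. The counts with DESeq2, by gene and by combination, and those with peak-list totals below, were not made over all listed sites. They are a description of these genes only. Counts of site reads and of last-exon reads alone depend on the scaling. With peak-list totals, site reads were higher in 4T1-U1-ASO at 46 of the 54 sites and lower at 4, against 32 and 4 with the authors' factors. With the authors' factors the median last-exon change over all listed sites was -0.66, with TMM factors it was -0.52, and with peak-list totals it was -0.06. In the last case 6 genes had lower last-exon reads (Fbxw2, Otulin, Uba1, Uba2, Ube2c and Usp10), all of them also lower with the authors' factors, and 3 had higher ones (Arih1, Fbxl5 and Rnf14). Arih1 had 701 and 716 last-exon reads in 4T1-U1-ASO, against 494 over both libraries in 4T1, and rose by 0.98 with the authors' factors (adjusted p = 0.0073, edgeR) and by 1.56 with peak-list totals (adjusted p = 0.0132).

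**Figure D3:**
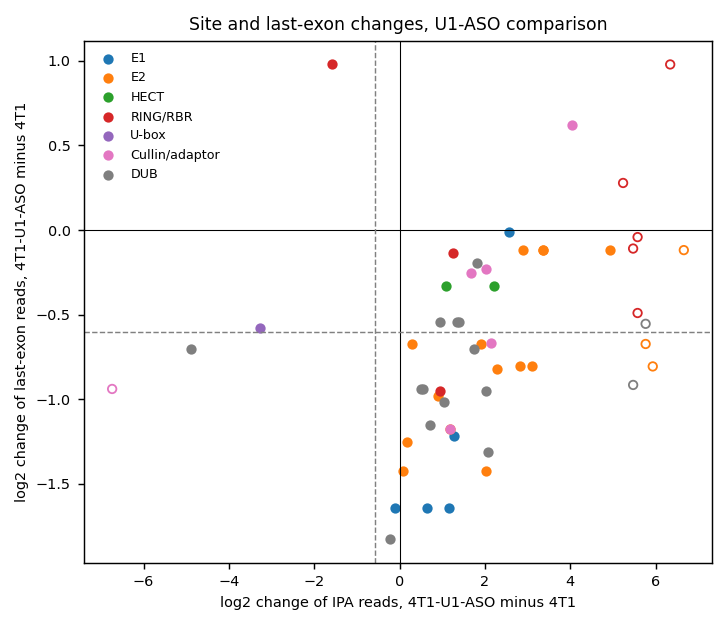
Change of site reads (horizontal) and of last-exon reads (vertical) for the 54 ubiquitin-system sites, 4T1-U1-ASO minus 4T1 on the log2 scale with the authors' scaling; colours give the role, and open symbols are sites with no read in 1 group, whose position depends on the fitting. Dashed lines show where 0 would lie with peak-list scaling, a shift of 0.58 and 0.61 (medians over all sites), and most points lie below 0, on both sides of the dashed horizontal line.

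The line comparisons ask how IPA differs between metastatic and non-metastatic lines. They listed 19 ubiquitin-system sites in 18 genes. Against 67NR, 4T1 had 11 listed sites, 3 higher and 8 lower in 4T1, beside 23.8% and 76.2% of the whole table. 4T07 had 9 against 67NR, 1 higher and 8 lower, beside 17.8% and 82.2%. Against 168FARN, 4T1 had 4, 1 higher and 3 lower, beside 24.7% and 75.3%, and 4T07 had 4, all lower, beside 20.4% higher and 79.6% lower. Both libraries of one line lay apart from both of the other at every one of these sites, beside 23.0% higher and 76.2% lower, 17.8% and 82.2%, 23.5% and 74.1%, and 20.4% and 79.0% of all listed sites in the same sequence of tables. The comparisons share libraries, so they are not independent of each other. A line missing from a site's account was not in a table that lists the site.

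Between the lines the E2 enzymes had 2 sites. Ube2h, the E2 of the CTLH ligase, held 0 and 1 reads beside 134 and 156 last-exon reads in 4T07, against 13 and 14 beside 102 and 106 in 67NR, at chr6:30183438-30183691 on the minus strand. Usage was 0.318% ± 0.450 in 4T07 and 11.5% ± 0.256 in 67NR. Ube2b had 0 and 2 reads in 4T1, against 11 and 12 in 67NR, at chr11:51807977-51808481, a site that overlaps the one with 38 and 61 reads in 4T1-U1-ASO. Its usage was below 1% in both lines, 0.0873% ± 0.123 in 4T1 and 0.728% ± 0.0379 in 67NR.

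Rnf2, the RING1B ligase of Polycomb repressive complex 1 that ubiquitinates histone H2A, held 1 and 3 reads in 4T07, against 19 and 19 in 67NR, at chr1:153332935-153333092 on the minus strand. Usage was 0.803% ± 0.413 in 4T07 and 12.1% ± 1.41 in 67NR, and the last exon was higher in 4T07, with 195 and 271 reads against 126 and 152. Rnf166 had 1 and 4 reads in 4T07 and 9 and 9 in 67NR, with usage of 2.45% ± 1.82 in 4T07 and 15.4% ± 0.186 in 67NR. Trim27 had 18 and 17 reads in 4T07 and 77 and 47 in 67NR, with usage of 4.91% ± 0.822 in 4T07 and 14% ± 2.62 in 67NR. Each site was lower in 4T07, without overlap.

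For Cblc, Trim30d and Otud7a the percentage is set by a last exon with almost no reads in 1 or 2 of the lines. Cblc, an epithelial member of the Cbl ligase family, had 3 and 7 site reads and 55 and 50 last-exon reads in 4T1. The last exon had no read in 67NR or 168FARN, where the site held 16 and 13 and 1 and 4 reads. Usage was therefore 8.73% ± 5.03 in 4T1 and 100% in both other lines, on 5 reads in all in 168FARN. Trim30d, of an interferon-induced mouse family with close copies, had 11 and 9 site reads and no last-exon read in 4T1, against 9 and 14 beside 24 and 47 in 67NR, and reads of close copies may be split between them. For Otud7a, a deubiquitinase of the A20 group, 4T1 gave 12 and 16 site reads but 1 and 0 from the last exon, and 4T07 gave 21 and 32 but none from the last exon, against 14 and 25 beside 33 and 25 in 67NR. In these 3 genes the site reads differed between the lines by no more than 1.20 on the log2 scale, in Cblc with fewer in 4T1 than in 67NR (log2 change -1.19, adjusted p = 0.038, edgeR). That last call was lost with the replicate block (adjusted p = 0.0892), DESeq2 (0.203) and TMM factors (0.0839), and without 4T1 replicate 1 (0.165), 67NR replicate 1 (0.176) or 67NR replicate 2 (0.0711). The Cblc call against 168FARN was lost without 168FARN replicate 2 (adjusted p = 0.0734 for usage, edgeR, beside 0.00068 with both).

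Ube4b had higher usage in 4T1 than in both non-metastatic lines. The region chr4:148705965-148706770, which contains the site described above, was read 32 and 22 times in 4T1, where the last exon gave 260 and 321 reads, against 5 and 4 beside 382 and 382 in 67NR and 3 and 5 beside 345 and 335 in 168FARN. Usage was 8.69% ± 3.21 in 4T1, 1.16% ± 0.181 in 67NR and 1.17% ± 0.430 in 168FARN. The U1-ASO value of 1.36% ± 0.517 given above lies near those of the 2 non-metastatic lines. All 3 comparisons use the same 4T1 libraries, so the 3 differences are not separate observations of a high value in 4T1. Site reads alone were higher in 4T1 by 2.89 against 67NR (adjusted p = 0.00062, edgeR) and by 2.97 against 168FARN (adjusted p = 0.0090, edgeR).

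Cullins and substrate adaptors made up 5 of the 18 genes, and all their sites were lower in the metastatic lines. Spop, the adaptor that brings substrates to CUL3 ligases, was listed in 3 comparisons, more than any other of these genes between the lines. At chr11:95282017-95282380 on the plus strand, 4T1 gave 1 and 5 reads, where the last exon gave 343 and 635, and 4T07 gave 0 and 1 beside 485 and 603, against 44 and 36 beside 787 and 1138 in 67NR and 2 and 8 beside 400 and 537 in 168FARN. Usage was 0.536% ± 0.347 in 4T1, 0.0828% ± 0.117 in 4T07, 4.18% ± 1.58 in 67NR and 0.983% ± 0.686 in 168FARN. The 67NR libraries were above all others, and those of 4T1 and 168FARN overlapped, at 0.291% and 0.781% in 4T1 and 0.498% and 1.47% in 168FARN. The lower usage in 4T07 than in 168FARN rested on few reads: its adjusted p of 0.00677 (edgeR) was 0.172 without 168FARN replicate 2 and 0.0722 without 4T07 replicate 1.

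Cul1, the scaffold of SCF ligases, held 5 and 6 reads in 4T1 and 2 and 5 in 4T07, against 47 and 51 in 67NR, at chr6:47433407-47433476 on the plus strand. Usage was 2.56% ± 1.36 in 4T1, 1.57% ± 0.920 in 4T07 and 14.7% ± 2.2 in 67NR. Fbxl17, an SCF adaptor for misassembled BTB proteins, held no read in 4T1 and 1 and 0 in 4T07, against 20 and 14 in 67NR, where usage was 8.53% ± 1.59. Appbp2, a substrate receptor of CUL2 ligases, held 1 and 2 reads in each of 4T1 and 4T07, against 20 and 15 in 67NR, with usage of 0.889% ± 0.209 in 4T1, 0.974% ± 0.337 in 4T07 and 7.6% ± 1.6 in 67NR. In these 3 genes the 4T1 and 4T07 values overlapped and the 67NR libraries stood apart. Cul4a was lower in 4T07, with 2 and 0 reads against 17 and 11 in 168FARN, at a site that lies upstream of the one listed for U1-ASO.

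Of the deubiquitinases, Usp21, which acts on histone H2A, held 2 and 3 reads in 4T1 and 8 and 15 in 4T07, against 42 and 46 in 168FARN, at chr1:173216222-173216682 on the minus strand. Usage was 3.76% ± 1.64 in 4T1, 9.02% ± 1.67 in 4T07 and 23.0% ± 1.65 in 168FARN, in that order without overlap. Usp10 had 2 sites 9.20 kb apart, both lower in 4T1. The first held 3 and 8 reads in 4T1, against 14 and 10 in 67NR, and the second, which contains the U1-ASO site, 3 and 4 against 7 and 16. Its last exon was higher in 4T1, with 304 and 364 reads against 164 and 144 in 67NR, a log2 change of 1.44 (adjusted p = 3.5e-09, edgeR). Uchl5, at a region containing its U1-ASO site, held 39 and 49 reads in 4T07, against 72 and 56 in 168FARN, with usage of 8.70% ± 0.0014 in 4T07 and 20.7% ± 6.36 in 168FARN. There too the last exon was higher in 4T07, with 409 and 514 reads against 214 and 290. Ubap2l, caught by its symbol although it is an RNA-binding protein with a ubiquitin-associated domain and no E1, had 33.9% ± 0.842 in 4T1 and 55.5% ± 0.152 in 168FARN.

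**Figure D4:**
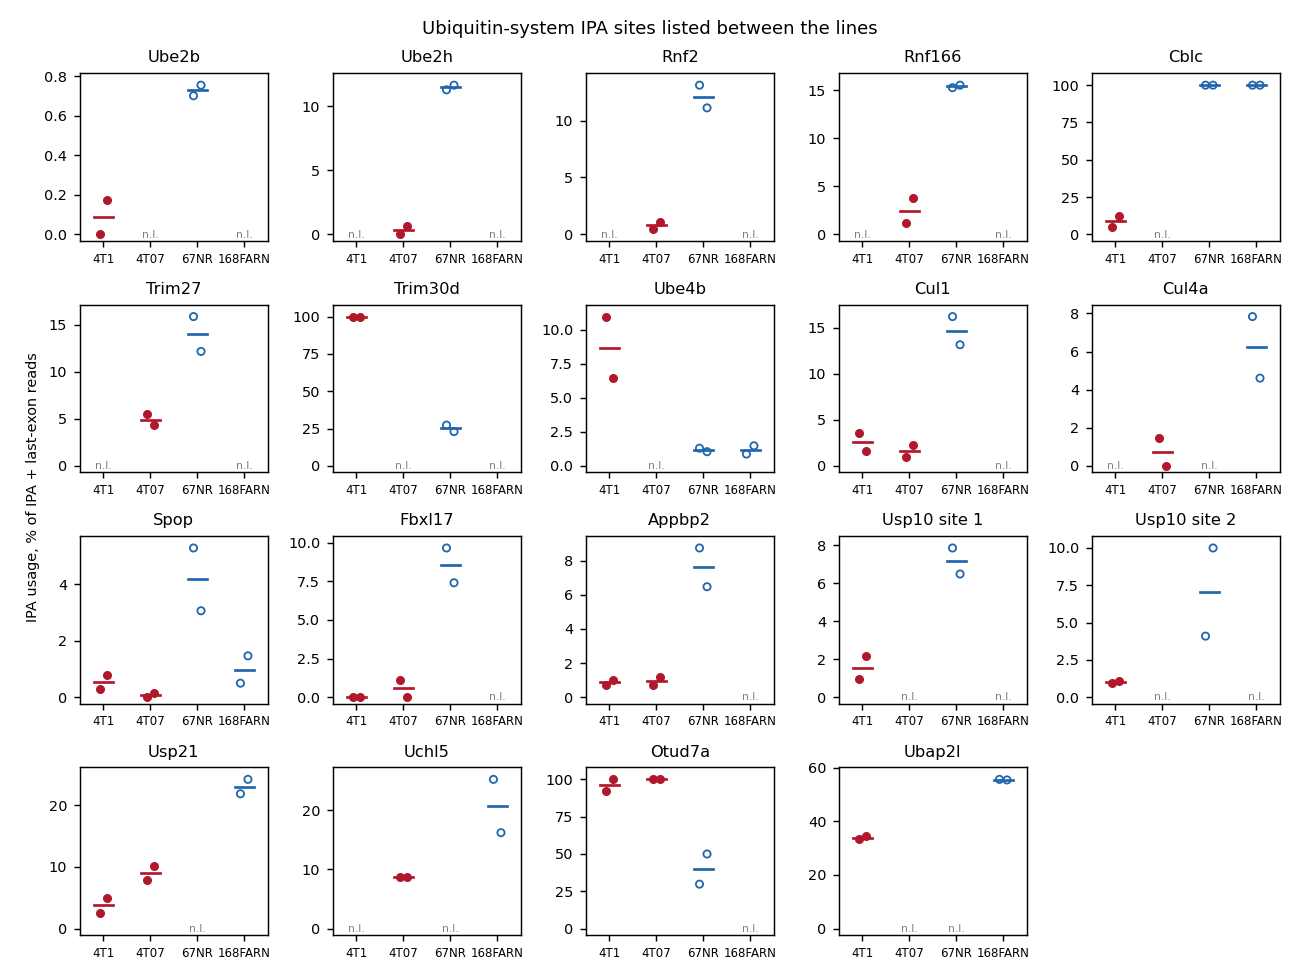
Usage of the 19 ubiquitin-system sites listed between the lines, in percent of site and last-exon reads; points are libraries, bars are group means, filled points are 4T1 and 4T07, open points 67NR and 168FARN, and n.l. marks a line that is in no table listing the site. 4T1 or 4T07 lies below 67NR or 168FARN except at Trim30d, Ube4b and Otud7a.

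Site reads and last-exon reads alone divided as follows between the lines. Site reads were lower in 4T1 at 7 of 11 and higher at 1 against 67NR, beside 68.3% and 16.7% of that table. In 4T07 against 67NR they were lower at 8 and higher at 0 of 9, beside 73.7% and 12.7%. They were lower at 1 and higher at 1 of 4 in 4T1 against 168FARN, beside 51.3% and 15.4%, and lower at 3 and higher at 0 of 4 in 4T07 against 168FARN, beside 59.8% and 19.9%. The last exon was higher at 3 and lower at 4 of 11 sites in 4T1 against 67NR, beside 37.7% and 26.2%, and higher at 3 and lower at 3 of 9 in 4T07 against 67NR, beside 43% and 18.2%. Against 168FARN it was higher at 2 and lower at 1 of 4 in 4T1, beside 44.7% and 18.8%, and higher at 1 and lower at 1 of 4 in 4T07, beside 54.4% and 23.1%. TMM factors moved the median last-exon change by 0.21 in 4T1 and 0.25 in 4T07 against 67NR.

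Sites listed for both lines of one kind also allow those lines to be compared with each other, which no deposited table does. A site that differs between such lines may be listed for only 1 of them and then drops out. The choice of sites can thus favour likeness, and a missing call is not read as likeness. Between 4T1 and 4T07, 125 sites could be tested, 6 of them in ubiquitin-system genes. None of the 6 passed, and none had an unadjusted p under 0.05 with edgeR, while 8% of the 125 were higher and 4.8% lower in 4T1; DESeq2 called none either. The differences were not well bounded: Spop was 2.47 higher in 4T1 on the log2 scale (95% interval -0.32 to 5.26, adjusted p = 0.268, edgeR), and Usp21 had a log2 difference of -1.4 (interval -2.85 to 0.056, adjusted p = 0.215, edgeR). Between 67NR and 168FARN, 102 sites could be tested, 3 of them in these genes, and none passed, beside 12.7% higher and 7.84% lower. Spop had the only unadjusted p under 0.05 there, with 44 and 36 reads in 67NR against 2 and 8 in 168FARN and a log2 difference in usage of 1.91 (interval 0.41 to 3.41, adjusted p = 0.0779, edgeR). With the replicate number as a block its adjusted p was 0.0108 and with the library as a block 0.00096 (both edgeR), and with DESeq2 it was 0.0401. Without the low-count filter it stayed at 0.0779 (edgeR). With 1 library left out, the log2 difference ranged from 1.44 (without 168FARN replicate 1) to 2.96 (without 168FARN replicate 2). Ube4b differed by 0.00 between 67NR and 168FARN (interval -0.71 to 0.70, adjusted p = 1, edgeR), and Cblc has no last-exon read in either line to compare.

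Other genes of the pathway were looked up from lists of ubiquitin and related modifiers, proteasome subunits, cullin partners, further ligases, the anaphase-promoting complex, further deubiquitinases, and segregase and shuttle factors. Of 221 such genes, 42 had a listed site. In the U1-ASO comparison 37 had 53 sites, 45 higher and 8 lower in 4T1-U1-ASO, a split near the 87.6% and 12.4% of all listed sites, so the counts by list are a description only. Proteasome subunits accounted for 10 genes with 11 higher and 4 lower sites, cullin partners for 5 genes with 8 higher sites, and shuttle and segregase factors for 6 genes with 8 higher sites. The further ligases gave 8 genes with 9 higher and 4 lower sites, the further deubiquitinases 4 genes with 5 higher sites, and the anaphase-promoting complex 4 genes with 4 higher sites. No proteasome subunit, cullin partner, modifier or anaphase-promoting complex gene was listed between the lines.

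Of the further genes listed between lines, Faf1, a cofactor of the segregase p97, was read 4 and 1 times in 4T1, 1 and 0 times in 4T07 and 25 and 27 times in 67NR. Its usage was 1.32% ± 1.13 in 4T1, 0.307% ± 0.434 in 4T07 and 11.3% ± 1.06 in 67NR. Its libraries in the 2 metastatic lines lay below those of 67NR. Cblb, a relative of Cblc, had 0.606% ± 0.857 in 4T07, against 14.2% ± 0.756 in 67NR and 7.44% ± 4.37 in 168FARN. The SUMO proteases Senp7 and Senp5 were lower in 4T07, Senp7 with 4.64% ± 3.55 against 60.2% ± 10.2 in 67NR and Senp5 with 3.26% ± 1.60 against 12.7% ± 0.0173 in 168FARN. Pja2 was higher in 4T07, with 3.25% ± 1.03 against 0.288% ± 0.0361 in 67NR. Usage of Traf5 was higher in both metastatic lines, with 87.5% ± 9.31 in 4T1 and 68.1% ± 8.27 in 4T07, against 28.4% ± 9.28 in 168FARN. Its site reads were 32 and 17 in 4T1 and 28 and 51 in 4T07, against 28 and 14 in 168FARN. The last exon gave only 2 and 4 reads in 4T1 and 17 and 18 in 4T07, against 52 and 50 in 168FARN. The percentage in 4T1 is thus set largely by a last exon with almost no reads.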

How the data were processed

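Measurements are 3'-end reads of 10 libraries, 2 in each of 5 groups. Per the submitters' processing notes, mm9 was the genome build, and Bowtie2 (2.2.5), SAMtools (1.1), bedtools (2.17.0) and DESeq2 (1.4.5) were among the tools; their steps are not stated. Per the file headers, each deposited row holds a log2 fold change and its error, a test score, a p-value, an adjusted p-value, and the normalized signal of the site and of the last exon in 4 libraries. No row has an adjusted p above 0.1. The authors' peak lists, deposited per library, give a read count for every peak. The signal is whole reads divided by 1 factor per column: within 0.1 read, 100% of values gave whole reads, which are used here. Changes are written so that positive means higher in the first-named group (the sign in tables against 67NR was turned), and matched the reads at every site. All 50 symbols are current RefSeq symbols (GRCm38.p6, used for names only). Positions are 1-based on mm9 as deposited.

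Usage and its SD were computed from these reads. The tests used edgeR 4.0.16 under R 4.3.3, with its quasi-likelihood test and the factors implied by the authors' values. Sites needed at least 10 reads over the libraries, and adjusted p (Benjamini-Hochberg, under 0.05) covers all listed sites of a table. Those sites were listed for a difference in usage between the same libraries, so an adjusted p for usage tends to be too small. In the authors' own test the adjusted p was 0.071 for Spop in 4T07 against 168FARN. It was 0.034 for the Arih1 site with lower usage in 4T1-U1-ASO and 0.045 for Cblc in 4T1 against 168FARN. Reads were also simulated with 1 dispersion of 0.05 for all sites and with 112 and 88 changed sites among the 1561 of the U1-ASO table. There, 76.8% of changes of 3 and 48.9% of changes of 2 log2 units were recovered, and 7 of 1361 unchanged sites were called. Real libraries can lie further apart and the listed sites were chosen for a change, so these shares are not the power for these data. Python 3.11.15 and matplotlib 3.10.9 made tables and figures. Alternatives were DESeq2 1.42.0, TMM, no filter, a replicate or library block, each library left out, stricter thresholds on the deposited p, and summed reads. Peak-list scaling, a crossed block and the comparisons within a line class were added after seeing the data. PCR reads without molecular identifiers are not independent molecules, so limits for a count of 0 (3 reads) cover counting error only. A multiple of such a limit leaves out the error of the other group's usage, so it is no lower bound. The 95% intervals come from edgeR's standard errors and degrees of freedom.

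The peak lists are filtered. They hold no read at 24.5% of the site values with at least 10 reads in the tables (4.61% to 32.5% per library), and no mm9 annotation was used here to assign peaks to genes, so the planned tests on peak-list reads were not run. Members and gene lists were chosen with earlier results of these data known. The rule for named genes took all members listed between lines, all in more than 1 comparison, and, from the U1-ASO table, the 15 largest rises, the falls (up to 10, of which there were 4) and the 10 with the highest usage; most others are given by value as well. A few genes are not reported here by name: counts over all sites include them, while the closing notes and the plots of named sites do not.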

Additional observations from a re-analysis of the deposited data

Results flagged for a closer look

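Among the ubiquitin-system sites, 47 of those described are listed only in the U1-ASO table, and the 3 other lines enter none of its comparisons. At 10 of the 47, both peak lists of 1 of those lines held more than 3 reads, the limit that a count of 0 allows, in 14 pairs of site and line. Since the lists are filtered, a missing peak is not read as absence. No other check for outlying samples was made, because groups of 2 allow none.

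In 4T07 the lists held 53 and 74 reads (mean 63.5) at the most downstream Ube2k site and 12 and 16 (mean 14) at the Ube2c site. The means were 10.5 at the Ube2q1 site, 9 at the Fbxw2 site, 8.5 at the most downstream Usp7 site and 5.5 at the Fbxo9 site.

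In 168FARN there were 24 and 17 reads (mean 20.5) at the Otulin site and 13 and 28 (mean 20.5) at the downstream Usp14 site. The means were 9.5 at the Klhl22 site, 9.5 at the Ube2c site, 8.5 at the Fbxo9 site and 7.5 at the Uba2 site.

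In 67NR there were 14 and 13 reads (mean 13.5) at the Otulin site and 6 and 11 (mean 8.5) at the most downstream Usp7 site. Those sites thus carried reads in lines that were not given the oligonucleotide. In the 4T1 lists the Otulin site held 17 and 11 reads, and the downstream Usp14 site and the Klhl22 site none. The U1-ASO comparison itself counts 4 and 13 reads in 4T1 at that Usp14 site and 2 and 3 at the Klhl22 site. A 0 in the filtered lists is therefore no lack of reads in 4T1.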

How the results depend on the processing

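Counts are given in the order U1-ASO, 4T1 and 4T07 against 67NR, 4T1 and 4T07 against 168FARN. Listed sites numbered 19, 2, 5, 1 and 1 at a deposited adjusted p of at most 0.01, against 54, 11, 9, 4 and 4 at 0.1. With all libraries the usage test passed every listed site of every comparison, in these genes and in all others. Those sites had been listed for such a difference in the same libraries, so the counts of this test are a description only. The usage test gave 54, 11, 9, 4 and 4 with the replicate block and with the crossed block, and 45 to 53, 11, 9, 3 to 4 and 3 to 4 with 1 library left out. Leaving out 1 library ended the usage call at 16 sites, those of Cblc and Spop against 168FARN and, in the U1-ASO comparison, sites of Cul4a, Otud4, Otulin, Rnf216, Rnf8, Ube2c, Ube2k, Ube2q1, Usp14, Usp7 and Uspl1. In the U1-ASO comparison, 36 sites passed in site reads, 11 with DESeq2 and 16 to 27 with 1 library left out; 37 passed in the last exon, 12 with peak-list scaling and 19 to 42 with 1 library left out. In 4T07 against 168FARN, 2 passed in the last exon, 1 with DESeq2 and 1 to 3 with 1 library left out. With peak-list scaling, site reads in the U1-ASO comparison passed at 50 sites. The cause of these differences in counts was not tested, except that a test without 1 library has fewer samples. Between 67NR and 168FARN 0 sites passed, but 1 (Spop) with DESeq2, 1 with the library block, 1 with the replicate block and 0 to 1 with 1 library left out.

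Signs turned in these cases: last-exon reads of Ube4b (0.026) and Usp7 (0.046 at each site) in 4T1-U1-ASO with peak-list scaling, and Ube4b between 67NR and 168FARN, 0.0035 with the library block, 0.0034 with the replicate block and -0.34 to 0.42 with 1 library left out. Between 4T1 and 4T07, with 1 library left out, Appbp2 ranged over -0.40 to 0.26, Cul1 over -0.050 to 1.19 and Fbxl17 over -2.94 to 0.29.

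Replicate numbers are shared by label only, and with 2 numbers pairing cannot be decided. Deviations of same-numbered libraries correlated at -0.03 in site reads for U1-ASO and at 0.06 to 0.21 for the lines, and in last-exon reads at -0.01 for U1-ASO and at -0.09 to 0.34 for the lines. A usage from reads summed over 2 libraries lies between the 2 library values. It cannot move by 1 SD from their mean, so summing the reads is no check of the 164 usage percentages. Tests on peak-list reads were not run. Depth limits sites with under 20 reads in a group: a count of 0 in 4T1 allows usage of 0.174% to 3.85%.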
